A study of Mus musculus with 2 samples.

Results

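The γδ T cell receptor is a pair of chains. Each chain joins a variable segment, which contacts ligand, to a constant region, which anchors the chain and meets the CD3 signalling complex. The δ genes lie inside the α locus. The mouse γ locus is a row of cassettes, each with its own variable segments, a joining segment and a constant gene, and 1 of the cassettes is inverted. Dendritic epidermal T cells (DETCs), the resident T cells of mouse epidermis, carry an almost invariant receptor made from Tcrg-V5 joined to Tcrg-C1 and Trdv4 joined to Trdc, whereas IL-17-producing γδ T cells of the skin use other γ segments, such as Tcrg-V4 and Tcrg-V6. Transcripts of γ constant genes other than that of the surface receptor are known in γδ T cells, because several cassettes can be open or rearranged in 1 cell.

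The genes described here are the 8 transcripts of these loci that were chosen by name out of 31053 genes in the count matrices. For the δ chain they are the constant gene Trdc and the variable gene Trdv4. For the γ chain they are the variable genes Tcrg-V5, Tcrg-V6 and Trgv2 and the constant genes Tcrg-C1, Tcrg-C2 and Tcrg-C4. A further 18 γ and δ locus genes were counted and are summarised after them.

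Epidermal T cells were sorted as CD45+EpCAM-MHC-II- cells from the ears of wild-type FVB/NJ females aged 8 weeks, and each animal had received an intradermal antibody 7 days earlier. The antibody was an isotype control for 1 library and anti-Skint1 for the other, Skint1 being a molecule of keratinocytes and thymic epithelium on which DETC development depends. Droplet libraries that count unique molecular identifiers (UMIs) at transcript 3′ ends were made. Each antibody has 1 library, described as a single mouse per group, so treatment and library cannot be told apart, no test between treatments was possible and every interval below is a 95% interval for counting error only. The sort took all non-epithelial CD45+ cells without MHC-II, so no T cell receptor chain was selected by the gate.

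The 2 libraries held 27272211 UMIs (isotype) and 32450957 UMIs (anti-Skint1). Between 500 and 2500 genes were detected, and no more than 12% of UMIs were mitochondrial, in 4242 and 5961 barcodes, with medians of 4046 and 3604 UMIs, and 5 of these barcodes occurred in both libraries. Cells with at least 3 UMIs of Cd3d, Cd3e and Cd3g together numbered 4111 and 5749. A doublet caller set to the loading rate marked 177 of 4709 and 330 of 6425 scored barcodes, which were kept, since its own threshold marked 1 and 0.

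The CD3+ cells were divided into 4 classes by their transcripts, and the genes used for this describe a class and are not results about it. The Trdv4+ class had at least 1 Trdv4 UMI and held 3374 isotype cells (82.1%) and 4544 anti-Skint1 cells (79.0%). The Trdv4- Trdc-high class had no Trdv4, at least 3 Trdc UMIs and no Trac, and held 411 (10.0%) and 803 (14.0%) cells. The αβ class had Trac, the α constant gene, and no Trdv4, and held 185 (4.50%) and 193 (3.36%) cells. An IL-17-type class, with at least 2 UMIs of 5830411N06Rik, Blk and Sox13 together, held 64 cells in each library and overlapped the others. It shared 15 isotype and 14 anti-Skint1 cells with the Trdv4+ class, 12 and 11 with the Trdv4- Trdc-high class and 18 and 12 with the αβ class. Another 122 and 182 CD3+ cells had no class, and 47 and 94 kept barcodes had no CD3 UMI at all. At the edge of the Trdv4+ class, 460 isotype cells (13.6%) and 963 anti-Skint1 cells (21.2%) entered it with a single Trdv4 UMI.

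The γ genes lie within 1 stretch of chromosome 13 and the δ genes on chromosome 14 (GRCm38, GENCODE annotation). Tcrg-V6 (chr13:19190356-19190929), Tcrg-V5 (chr13:19192278-19192725) and Tcrg-C1 (chr13:19214103-19217024) are on the plus strand, with 21377 bases between Tcrg-V5 and Tcrg-C1. Tcrg-C2 (chr13:19304649-19307551) and Trgv2 (chr13:19336573-19337167) are both on the minus strand with 29021 bases between them, which is the inverted cassette. Tcrg-C4 (chr13:19344558-19352756) is on the plus strand, 7390 bases beyond Trgv2 and 4103 bases beyond Tcrg-V1, the variable gene of its cassette. Trdv4 (chr14:54074905-54075515) and Trdc (chr14:54142851-54148868) are on the plus strand, and the last 207 bases of Trdc overlap Trdv5, which is read from the opposite strand.

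**Figure D1:**
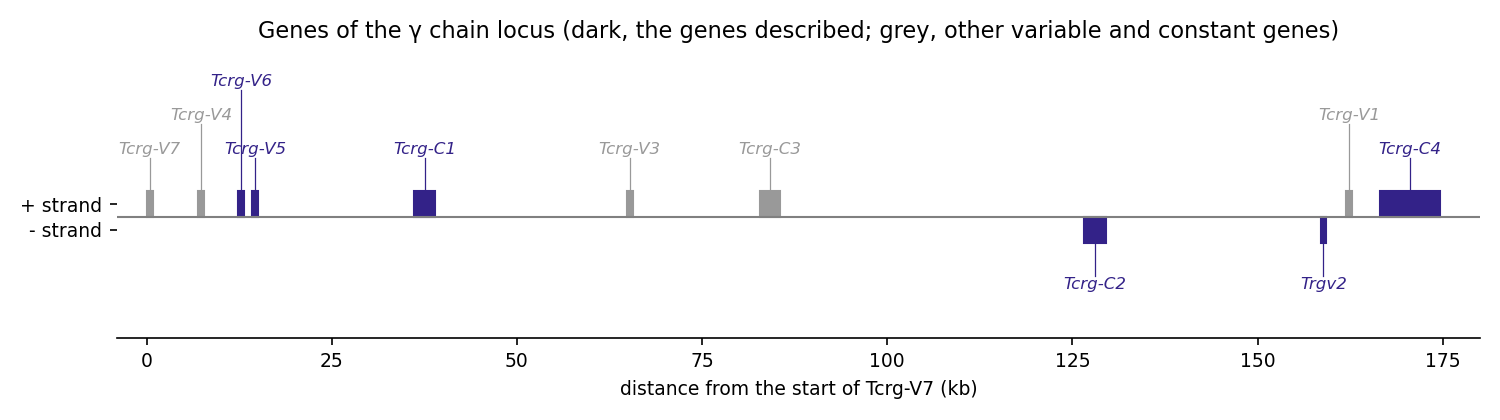
Map of the γ locus, drawn in kilobases from the start of Tcrg-V7, with genes on the plus strand above the line and genes on the minus strand below it. The members of the set are dark and other annotated genes are pale, and Trgv2 and Tcrg-C2 are the pair below the line, with 29021 bases between them.

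Because the 3 γ constant genes are copies of each other, the start of exon 1 is shown for each to let the reader compare them. This stretch lies outside the last 500 bases, where a 3′ library reads most, so it does not show what separates their counts. These are the first 90 coding bases of exon 1 in each gene, 5′ to 3′ on the coding strand, with capitals at the 13 positions where the 3 genes are not all alike (Tcrg-C1 chr13:19214103-19214192, plus strand; Tcrg-C2 chr13:19307462-19307551, minus strand; Tcrg-C4 chr13:19344558-19344647, plus strand).
Tcrg-C1: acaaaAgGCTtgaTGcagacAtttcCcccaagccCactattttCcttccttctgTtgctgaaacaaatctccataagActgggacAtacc
Tcrg-C2: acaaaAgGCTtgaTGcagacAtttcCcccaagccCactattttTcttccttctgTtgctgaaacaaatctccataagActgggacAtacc
Tcrg-C4: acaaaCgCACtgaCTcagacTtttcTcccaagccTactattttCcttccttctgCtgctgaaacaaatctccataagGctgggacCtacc
Over the 330 bases of exon 1, Tcrg-C1 and Tcrg-C2 were identical at 97.3% of positions, with 9 differences, whereas Tcrg-C4 matched Tcrg-C1 at 82.1% and Tcrg-C2 at 81.5%. Windows of 98 bases, the length of the sequenced cDNA read, were compared between annotated transcripts. Of the Tcrg-C1 windows, 72 of 827 (8.71%) occurred word for word in Tcrg-C2 or Tcrg-C3, and of the Tcrg-C2 windows, 7 of 817 (0.857%) occurred in Tcrg-C1. In the last 500 bases, where a 3′ library reads most, 1.74% of windows of either gene were shared. The other 6 genes shared no window with another gene. Reads from the shared stretches cannot be assigned by exact sequence, and how the authors' counting placed them was not tested, so small counts of Tcrg-C2 beside Tcrg-C1 carry that uncertainty.

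The 4 variable genes are told apart by sequence next to the junction with the joining segment. The last 60 annotated coding bases of each are shown 5′ to 3′ on the coding strand, with capitals at the TGT codon of the conserved cysteine that opens the junction (Trdv4 chr14:54075456-54075515, Tcrg-V5 chr13:19192666-19192725 and Tcrg-V6 chr13:19190870-19190929, plus strand; Trgv2 chr13:19336573-19336632, minus strand).
Trdv4: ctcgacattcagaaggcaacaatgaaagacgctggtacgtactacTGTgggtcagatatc
Tcrg-V5: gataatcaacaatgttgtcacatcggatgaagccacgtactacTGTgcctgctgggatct
Trgv2: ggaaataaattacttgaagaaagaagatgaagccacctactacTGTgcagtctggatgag
Tcrg-V6: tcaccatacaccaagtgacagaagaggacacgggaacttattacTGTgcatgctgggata
These segments sit at the 5′ end of a rearranged transcript, whereas the libraries read its 3′ end. A receptor transcript is thus counted mainly at its constant gene, and the share of cells with a variable gene UMI does not measure how many cells use it. For the same reason levels are compared below within a gene, between classes or libraries, and not between genes.

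**Figure D2:**
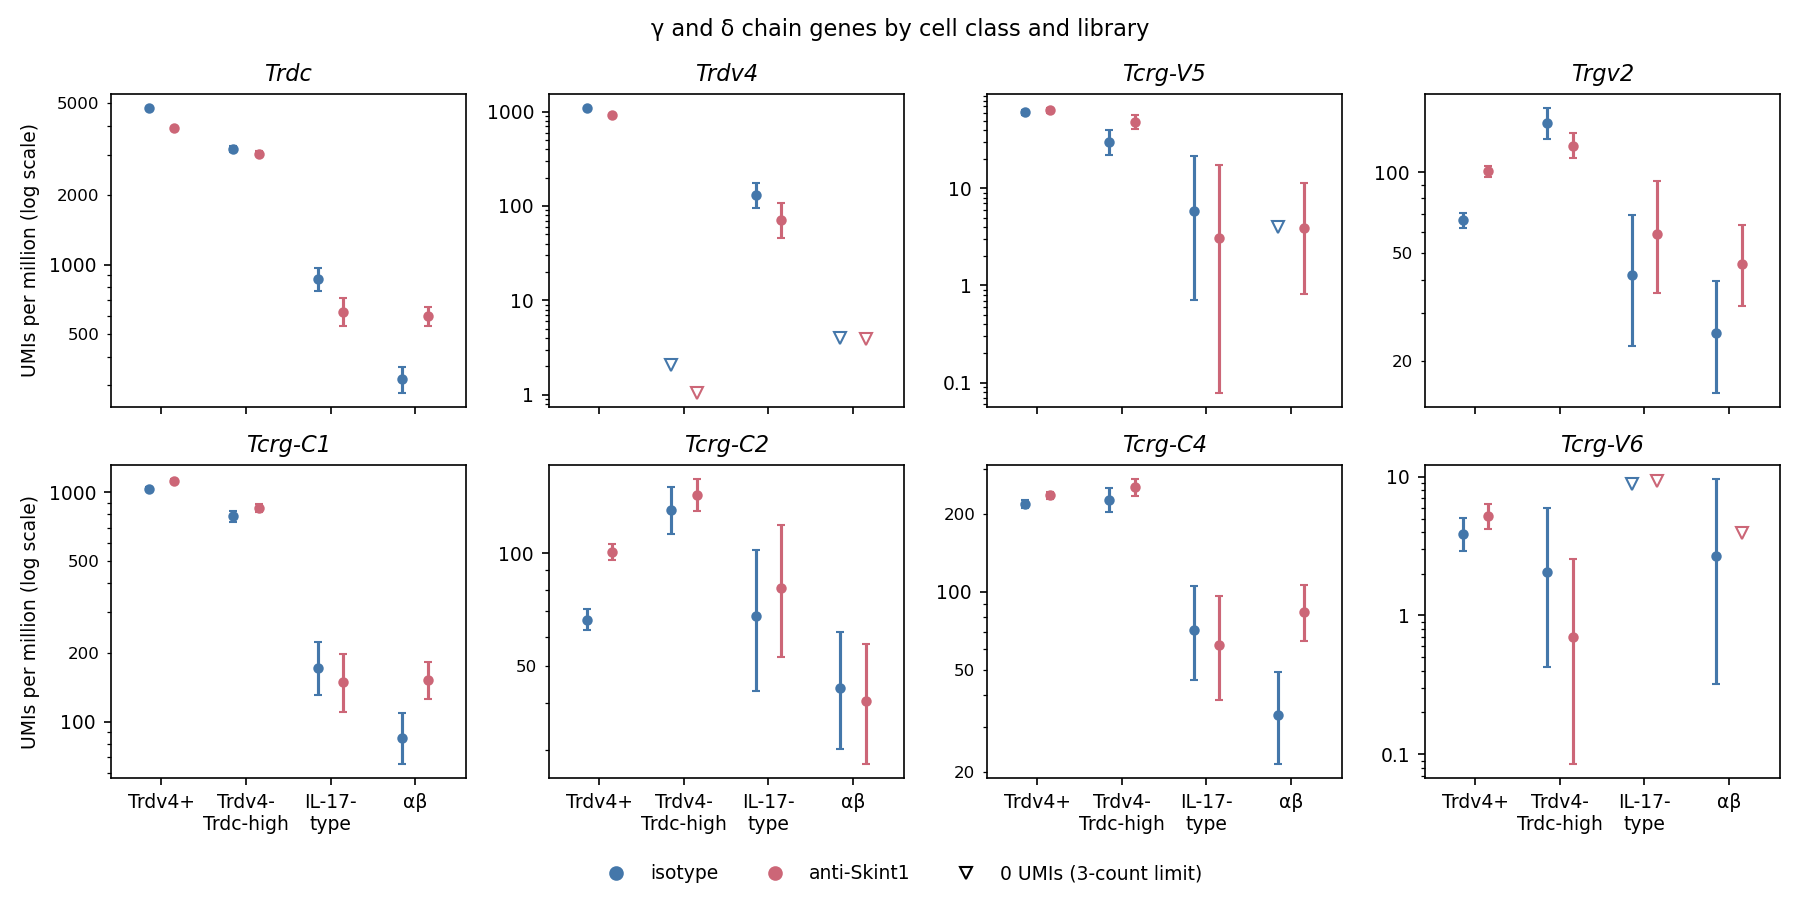
Level of each gene in CPM (log axis) in the 4 classes, with isotype in blue and anti-Skint1 in red. Bars are exact Poisson 95% intervals, open triangles mark 0 UMIs and stand at the level that 3 counts would give, and the IL-17-type and αβ classes sit well below the others for Trdc and Tcrg-C1.

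Trdc was the δ chain gene found in nearly every Trdv4+ cell. Levels are given as CPM, the UMIs of a gene per 1000000 UMIs of its class and library, with the interval in brackets. Trdc stood at 4755 CPM (4719 to 4791) in isotype and 3916 CPM (3887 to 3946) in anti-Skint1 Trdv4+ cells. In the Trdv4- Trdc-high class, which the gene helped to define, it stood at 3168 and 3031. The IL-17-type class had 867 (771 to 972) and 623 (540 to 716), and the αβ class had 318 (279 to 361) and 597 (544 to 655). The first 2 classes held the most in both libraries. The intervals of the last 2 overlapped in the anti-Skint1 library. IL-17-type cells outside the first 2 classes had 195 and 126 CPM, but leaving out a class set by Trdc removes Trdc-rich cells by rule. No order of the IL-17-type and αβ classes is read from that cut. When each cell was thinned to 2000 UMIs, which left out 96 and 134 Trdv4+ cells that were shallower, 99.0% and 99.3% of Trdv4+ cells kept a Trdc UMI, with a median of 9 and 7 UMIs per cell. The same depth gave 50.8% and 37.5% of IL-17-type cells and 15.2% and 26.9% of αβ cells. Without the cells that belong to more than 1 class, the IL-17-type shares were 15.8% and 14.8%. That cut takes out cells of the Trdv4- Trdc-high class, so part of the fall is set by the rule.

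Trdv4, the variable gene of the DETC δ chain, set the first class and is described only. Its level in Trdv4+ cells was 1081 and 927 CPM, and 86.1% and 84.7% of these cells kept a Trdv4 UMI at 2000 UMIs. Over all CD3+ cells at that depth, 71.5% (isotype) and 68.3% (anti-Skint1) had Trdv4, and 93.0% and 94.8% had Trdv4 or Trdc. How many Trdv4- Trdc-high cells carried Trdv4 transcripts below detection was not tested.

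Tcrg-V5, the γ variable gene of the DETC receptor, was found mainly in the first 2 classes. Trdv4+ cells had 60.6 (56.7 to 64.8) and 63.8 (60.1 to 67.7) CPM, and Trdv4- Trdc-high cells had 30.0 (21.8 to 40.3) and 48.8 (41.1 to 57.7). The difference between these classes was a log2 ratio of -1.01 (-1.48 to -0.58) for isotype and -0.39 (-0.65 to -0.13) for anti-Skint1. Both other classes were nearly empty of it. The IL-17-type class had 2 and 1 UMIs, and the αβ class had 0 UMIs in isotype, which allows up to 3.99 CPM, and 3 in anti-Skint1. At 2000 UMIs, 11.9% of Trdv4+ cells in either library had a Tcrg-V5 UMI, against 21.7% and 20.8% at full depth.

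Trgv2, the variable gene of the inverted cassette, had a different order of classes. It was highest in the Trdv4- Trdc-high class, at 152 (133 to 174) CPM in isotype and 126 (113 to 140) in anti-Skint1. Trdv4+ cells followed with 66.5 (62.3 to 70.9) and 100.9 (96.2 to 105.7), then IL-17-type cells with 41.4 (22.7 to 69.5) and 59.2 (35.7 to 92.5) and αβ cells with 25.3 (15.2 to 39.5) and 45.7 (31.9 to 63.6). With at most 5% mitochondrial UMIs, the log2 ratio between the first 2 classes in anti-Skint1 was 0.0033, so their order in that library depends on this limit. The intervals of the last 2 classes overlapped in both libraries, and in isotype so did those of IL-17-type and Trdv4+ cells. At 2000 UMIs, 23.4% and 17.2% of Trdv4- Trdc-high cells had Trgv2, against 10.8% (9.79 to 11.9) and 15.2% (14.2 to 16.3) of Trdv4+ cells. Without thinning, 18.6% and 23.8% of Trdv4+ cells had it.

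Tcrg-C1, the constant gene of the DETC γ chain, followed the pattern of Trdc. The Trdv4+ class had 1033 (1016 to 1049) and 1122 (1106 to 1138) CPM and the Trdv4- Trdc-high class had 784 (739 to 831) and 855 (821 to 890). Far below came IL-17-type cells, with 172 (130 to 222) and 150 (110 to 198), and αβ cells, with 85.2 (65.6 to 109) and 152 (125 to 182). Those last 2 classes were apart in isotype and overlapped in anti-Skint1. IL-17-type cells outside the first 2 classes had 70.5 and 26.3 CPM, but that cut removes cells by their Trdv4 and Trdc. No order against the αβ class is read from it. At equal depth, 84.0% and 85.7% of Trdv4+ cells, 69.0% and 76.5% of Trdv4- Trdc-high cells, 20.6% and 18.8% of IL-17-type cells and 8.43% and 17.6% of αβ cells had Tcrg-C1.

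Tcrg-C2, the constant gene paired with Trgv2, was again highest outside the Trdv4+ class. Its level was 130 (113 to 150) and 143 (129 to 158) CPM in Trdv4- Trdc-high cells and 66.6 (62.4 to 70.9) and 100.9 (96.2 to 105.7) in Trdv4+ cells. IL-17-type cells had 68.1 (43.1 to 102) and 81.0 (52.9 to 119), intervals that contained the Trdv4+ level. The αβ class was lowest with 43.9 (30.2 to 61.7) and 40.5 (27.5 to 57.5), although its intervals overlapped those of IL-17-type cells. Thinned Trdv4+ cells had a Tcrg-C2 UMI in 11.0% (9.93 to 12.1) and 15.9% (14.9 to 17.0) of cases.

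Tcrg-C4, the constant gene of the Tcrg-V1 cassette, did not separate the first 2 classes. It stood at 219 (211 to 226) and 237 (230 to 244) CPM in Trdv4+ cells and at 227 (204 to 253) and 255 (237 to 274) in Trdv4- Trdc-high cells. IL-17-type cells had 71.0 (45.5 to 106) and 62.3 (38.1 to 96.3), and αβ cells had 33.3 (21.5 to 49.1) and 83.6 (64.4 to 107), with the order of these 2 classes turned between libraries and their intervals overlapping in both. A Tcrg-C4 UMI was present in 33.5% and 36.2% of Trdv4+ cells at 2000 UMIs, and in 34.3% and 40.8% of Trdv4- Trdc-high cells.

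Tcrg-V6, a variable gene of IL-17-producing γδ T cells, was rare everywhere. Trdv4+ cells had 55 and 91 UMIs, or 3.85 (2.90 to 5.01) and 5.21 (4.19 to 6.39) CPM, from 46 and 78 cells. No UMI was seen in the 64 IL-17-type cells of either library, which allows up to 8.88 and 9.35 CPM. This limit lies above the level of Trdv4+ cells, so a difference was not detectable at this depth. The other classes had between 0 and 3 UMIs per library.

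**Figure D3:**
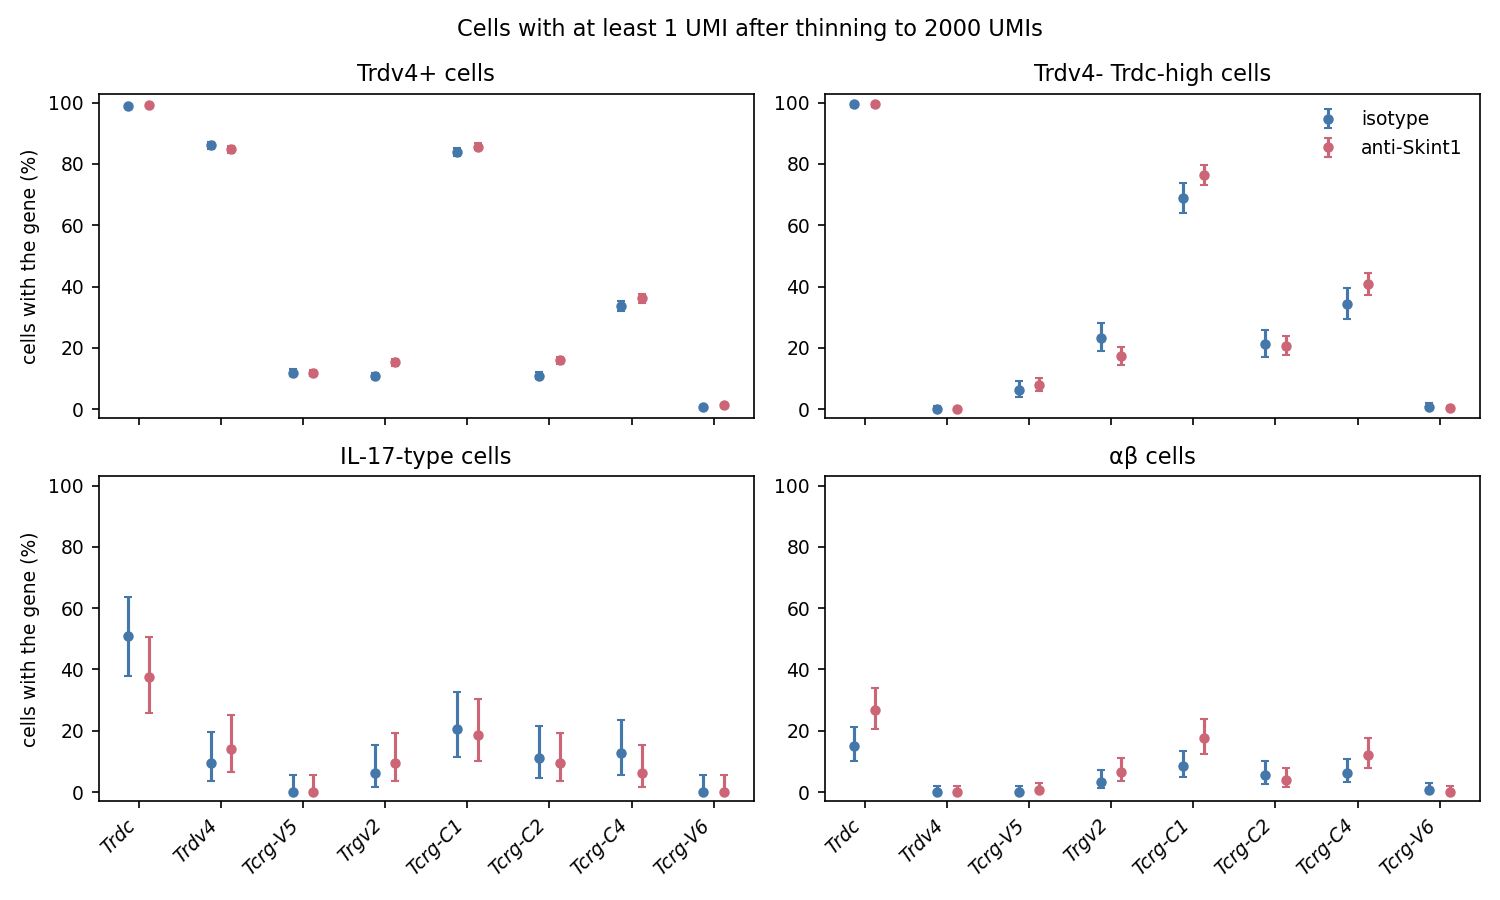
Share of cells (percent) in which at least 1 UMI of each gene was found after every cell was thinned to 2000 UMIs, for the 4 classes, isotype in blue and anti-Skint1 in red, with exact binomial 95% intervals. Trdc, Trdv4 and Tcrg-C1 were found in most Trdv4+ cells, whereas Trgv2 and Tcrg-C2 were each found in 10.8% to 15.9% of them.

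Set against Trdv4+ cells in the same library, the Trdv4- Trdc-high class had higher levels of the inverted cassette and lower levels of the DETC cassette. Trgv2 was higher by a log2 ratio of 1.20 (0.98 to 1.41) in isotype and 0.32 (0.15 to 0.48) in anti-Skint1, but with at most 5% mitochondrial UMIs the anti-Skint1 ratio was 0.0033. Tcrg-C2 was higher by 0.97 (0.74 to 1.20) and 0.50 (0.34 to 0.66). Tcrg-C1 was lower, at -0.40 and -0.39, as was Tcrg-V5, at -1.01 and -0.39, and the intervals for Tcrg-C4 included 0 in both libraries. At a 2-fold limit, Trgv2 was the single gene past it in the higher direction in isotype, 1 of 5 members against 0.0348% of 2871 tested genes, those that reached 50 CPM in the 2 classes together. In the lower direction Tcrg-V5 passed in isotype, 1 of 5 members against 0.104% of genes, and it was tested only because it is high in Trdv4+ cells. Those genes include Trdv4, which the class rule sets to 0. In anti-Skint1 none of the 5 members passed in either direction, against 0.0356% of 2812 genes each way. The 1 gene past the limit downward there was Trdv4 itself, so that share is made by the rule. These are ratios of sums in 1 library each, with no replicate check.

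The IL-17-type and αβ classes were lower in most of the genes. Below Trdv4+ cells by more than 2-fold in IL-17-type cells were Trdc, Tcrg-V5, Tcrg-C1 and Tcrg-C4, 4 of 6 members in either library (Tcrg-V5 was tested only because it is high in Trdv4+ cells), where 17.8% (isotype) and 19.7% (anti-Skint1) of all genes passed. Tcrg-C2 was an exception, with log2 ratios of 0.03 (-0.63 to 0.63) and -0.32 (-0.93 to 0.24). In αβ cells 5 of 6 members passed in isotype, against 15.2% of all genes, and 6 of 6 in anti-Skint1, against 13.4%. Of these, Tcrg-V5 and Trgv2 in both libraries, Tcrg-C4 in isotype and Tcrg-C2 in anti-Skint1 were under 50 CPM in αβ cells and were tested only because they are higher in Trdv4+ cells, so nothing is read from the counts. The log2 ratios there were -3.90 and -2.71 for Trdc, -3.60 and -2.89 for Tcrg-C1, -2.72 and -1.50 for Tcrg-C4 and -1.40 and -1.14 for Trgv2. With at least 2 Trac UMIs required for the αβ class, an alternative chosen after seeing the data, they were -5.20 and -3.63 for Trdc and -4.68 and -3.88 for Tcrg-C1. Tcrg-C4 in anti-Skint1 was then -2.36. Tcrg-C2 in isotype was the member within 2-fold, at -0.60, but it was -1.09 with that Trac limit.

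The label of the IL-17-type class was checked against genes of IL-17-producing γδ T cells that its rule did not use. Of 9 such genes, 8 were higher than in Trdv4+ cells in both libraries. This count does not mark the class, since 9 and 6 were higher in Trdv4- Trdc-high cells and 9 and 7 in αβ cells. The share over all genes was not counted. The summed level of the 9 genes was 1260 and 1592 CPM in IL-17-type cells against 168 and 184 in Trdv4+ cells. However, the αβ class reached 851 and 761 on the same 9 genes. Il17a itself was found in 7 and 10 of the 64 cells. Trdc was found in 39 and 29 of the 64 cells, Trac in 22 and 12 and neither in 15 and 26, so the class is not purely γδ by its receptor transcripts. Cells of the class outside the first 2 classes, 37 and 39 in number, had Trdc at 195 and 126 CPM, a level that the cut on Trdc lowers by rule. The class is thus named here for its rule and not as a cell type.

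The αβ class was mixed as well, and its γδ transcripts sat in few cells. The 10 cells with most Trdc held 70.3% of its Trdc UMIs in isotype and 41.8% in anti-Skint1. Cells without Trdc numbered 147 and 136. Of 11 genes listed for αβ T cells, 6 (Cd4, Cd8a, Cd8b1, Cd5, Cd6 and Cd28) summed there to 685 (620 to 755) and 727 (656 to 804) CPM. The 18 and 44 αβ-class cells with at least 3 Trdc UMIs had 40.0 (8.24 to 117) and 56.8 (28.4 to 102) for the same genes. These values came from 3 and 11 UMIs in 3 cells of each library. Trdv4+ cells had 8.74 and 6.86. Trbc1 and Trbc2, also on the list, did not follow the 6. Trbc1 stood at 1107 and 822 CPM without Trdc, 865.5 and 1147 with at least 3 Trdc UMIs and 1504 and 1225 in Trdv4+ cells. Trbc2 stood at 1305 and 1141, at 812 and 1152 and at 1113 and 993. Tcrg-C1 went the other way from the 6 genes, with 23.7 and 26.6 CPM in cells without Trdc and 613 and 480 in cells with at least 3 Trdc UMIs. Trac stood at 293 and 336 CPM in the cells with at least 3 Trdc UMIs and at 20.1 and 28.1 in Trdv4+ cells. The class rule requires Trac, so this difference is not a result. Tcrg-C2, at 120 and 108 CPM in the cells with at least 3 Trdc UMIs, was above its level in αβ-class cells without Trdc, 28.8 and 17.1. Trdv4+ cells had 66.6 and 100.9, and no interval was computed for so few cells, so no difference from them is read. Leaving Trac aside, these few cells lay between cells without Trdc and Trdv4+ cells in Tcrg-C1 and, from few UMIs, in the 6 genes. The doublet caller marked 1 and 5 αβ-class cells in all, and the part of doublets was not tested.

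Between the libraries, the 2 genes of the inverted cassette were higher after anti-Skint1 in Trdv4+ cells. Trgv2 went from 951 to 1764 UMIs, a log2 ratio of 0.60 (0.49 to 0.72), and Tcrg-C2 went from 952 to 1764 UMIs, also 0.60 (0.49 to 0.72). Trdc was lower, at -0.28 (-0.30 to -0.26), and so was Trdv4, at -0.22 (-0.25 to -0.19). Tcrg-C1 at 0.12 (0.09 to 0.15) and Tcrg-C4 at 0.11 (0.05 to 0.18) were slightly higher. The intervals of Tcrg-V5, 0.07 (-0.05 to 0.20), and of Tcrg-V6, 0.44 (-0.06 to 0.95), included 0. Trdc and the inverted γ cassette thus had ratios of opposite sign.

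Those ratios were read against all 2858 genes with at least 50 CPM over both libraries together, whose median log2 ratio was -0.03 with 5th and 95th percentiles of -0.22 and 0.13. Above a log2 ratio of 0.32, the limit set for naming a gene, were 8 genes, or 0.28%, and 2 of the 6 members tested were among them, leaving out Trdv4, which set the class, namely Trgv2 and Tcrg-C2, both at percentile 99.97. The other 6 were Cxcl10, Egr1, Tsc22d3, Orm2, Nptx1 and Ly6a. Below that limit in the other direction were 1.68% of genes and 0 of the 6 members, with Trdc at percentile 2.45. Among genes of the receptor complex, Cd3d, Cd3e and Cd3g had log2 ratios of 0.03, 0.09 and 0.03, while Cd247, the CD3 ζ chain, had -0.22, Trbc1 -0.30 and Trbc2 -0.16. None of these receptor complex genes passed the limit. Trac had 0.49 (0.27 to 0.70), but it was below 50 CPM and so not among the genes read against the limit. Median UMIs of Trdv4+ cells were 4097 and 3620, and the share of cells with 1 Trdv4 UMI also differed. The cells were also divided at 3822 UMIs. Trgv2 was higher after anti-Skint1 in shallower cells (63.3 and 88.7 CPM) and in deeper cells (67.8 and 110.9). Trdc was lower in both, with 5206 and 3983 in shallower cells and 4574 and 3863 in deeper ones.

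**Figure D4:**
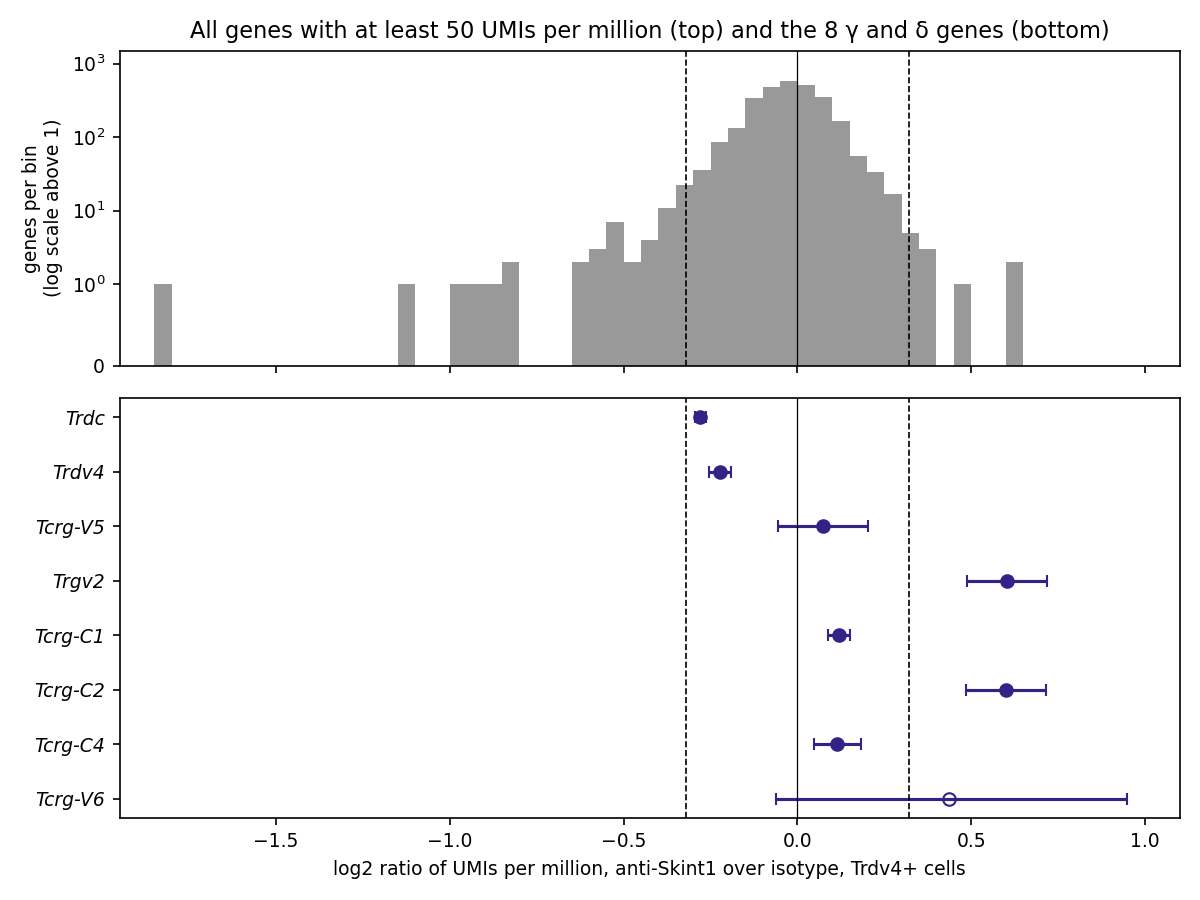
Log2 ratio of CPM, anti-Skint1 over isotype, in Trdv4+ cells. The upper panel counts all 2858 genes with at least 50 CPM in bins (symmetric log axis), the lower panel shows the 8 genes with exact 95% counting intervals (open circle, below 50 CPM) and dashed lines mark the limit of 0.32 in both directions, with Trgv2 and Tcrg-C2 at 0.60 in the right-hand tail.

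Outside the Trdv4+ class, the same ratios took other values. In Trdv4- Trdc-high cells Trgv2 had -0.28 (-0.52 to -0.03), and without the 10 cells with most Trgv2 UMIs it had -0.19 (-0.46 to 0.09). Tcrg-C2 had 0.13 (-0.12 to 0.39) there, Tcrg-C1 had 0.13 (0.02 to 0.23), and Tcrg-V5 had 0.70 (0.20 to 1.22) from 44 and 139 UMIs. Trgv2 thus went in the other direction from Trdv4+ cells, and the difference between classes was not tested. Class membership depends on finding Trdv4, which was lower in anti-Skint1, and the Trdv4- Trdc-high class held 411 and 803 cells. The part of a changed class make-up in the ratios of this paragraph was not tested. In αβ cells Trdc was higher after anti-Skint1 by 0.91 (0.68 to 1.14), Tcrg-C1 by 0.83 (0.38 to 1.30) and Tcrg-C4 by 1.33 (0.64 to 2.06). Cells with at least 3 Trdc UMIs made up 18 of the 185 cells in isotype and 44 of the 193 in anti-Skint1, and Trdc without the 10 cells with most of its UMIs was higher by 1.89. In IL-17-type cells Trdc was lower, at -0.48 (-0.74 to -0.21), but with no upper limit on genes per cell it was at 0.03. The other ratios there had intervals that included 0, apart from that of Trdv4, -0.86 (-1.66 to -0.10), which was -0.26 without the 10 cells with most of its UMIs. Without the 10 cells with most UMIs of each gene, Tcrg-C1 went from -0.20 to -1.24 and Tcrg-C2 from 0.25 to -0.87, so these ratios rest on few cells.

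Co-detection was measured in Trdv4+ cells thinned to 2000 UMIs, where depth is the same for each cell. Tcrg-C2 was found in 35.2% (30.2 to 40.4) of isotype cells with Trgv2, 125 of 355, and in 8.04% of cells without it, 235 of 2923. In anti-Skint1 it was found in 34.7% of cells with Trgv2, 233 of 672, and in 12.6% of cells without it, 469 of 3738. Transcripts of the variable and constant genes of the inverted cassette thus tended to lie in the same cells, by 27.2 and 22.1 percentage points. The share of cells with either gene was 18.0% in isotype and 25.9% in anti-Skint1, and 3.81% and 5.28% had both.

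Trgv2 was not tied in this way to genes of other cassettes. Tcrg-C1 was found in 81.7% of isotype cells with Trgv2 and 84.3% without, and in 85.9% and 85.7% in anti-Skint1. Tcrg-C4 was found in 32.4% with Trgv2 and 33.7% without, and in 36.0% and 36.2%. Of the 2 variable genes, Trgv2 was found in 12.3% of isotype cells with Tcrg-V5 and 10.6% without, and in 17.5% and 14.9% in anti-Skint1. The intervals overlapped for these 3 pairs in both libraries, so no difference was detectable at this depth.

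Within the DETC cassette the gap was smaller, and most cells had Tcrg-C1. It was found in 86.9% of isotype cells with Tcrg-V5 and 83.6% without, with overlapping intervals, and in 89.5% and 85.2% in anti-Skint1, with intervals apart. In Trdv4- Trdc-high cells the same pair gave 100% (23 of 23 cells) against 66.9% in isotype and 91.1% against 75.3% in anti-Skint1. Tcrg-C4 was more frequent with Tcrg-V5 in anti-Skint1, 41.9% against 35.4%, but not in isotype, 33.9% against 33.5%. With Tcrg-V1, the variable gene of its own cassette, Tcrg-C4 was found in 39.0% against 33.3% of isotype cells and in 45.2% against 35.8% in anti-Skint1, where the intervals were apart. Of the 21 pairs among 7 genes, 3 in isotype and 4 in anti-Skint1 had intervals apart with the higher share in cells with the first gene, and none had them apart in the other direction. The share over other gene pairs was not computed, so nothing is read from these counts. The pair Tcrg-C2 and Trgv2 and the pair Tcrg-C1 and Trdc were in both sets.

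**Figure D5:**
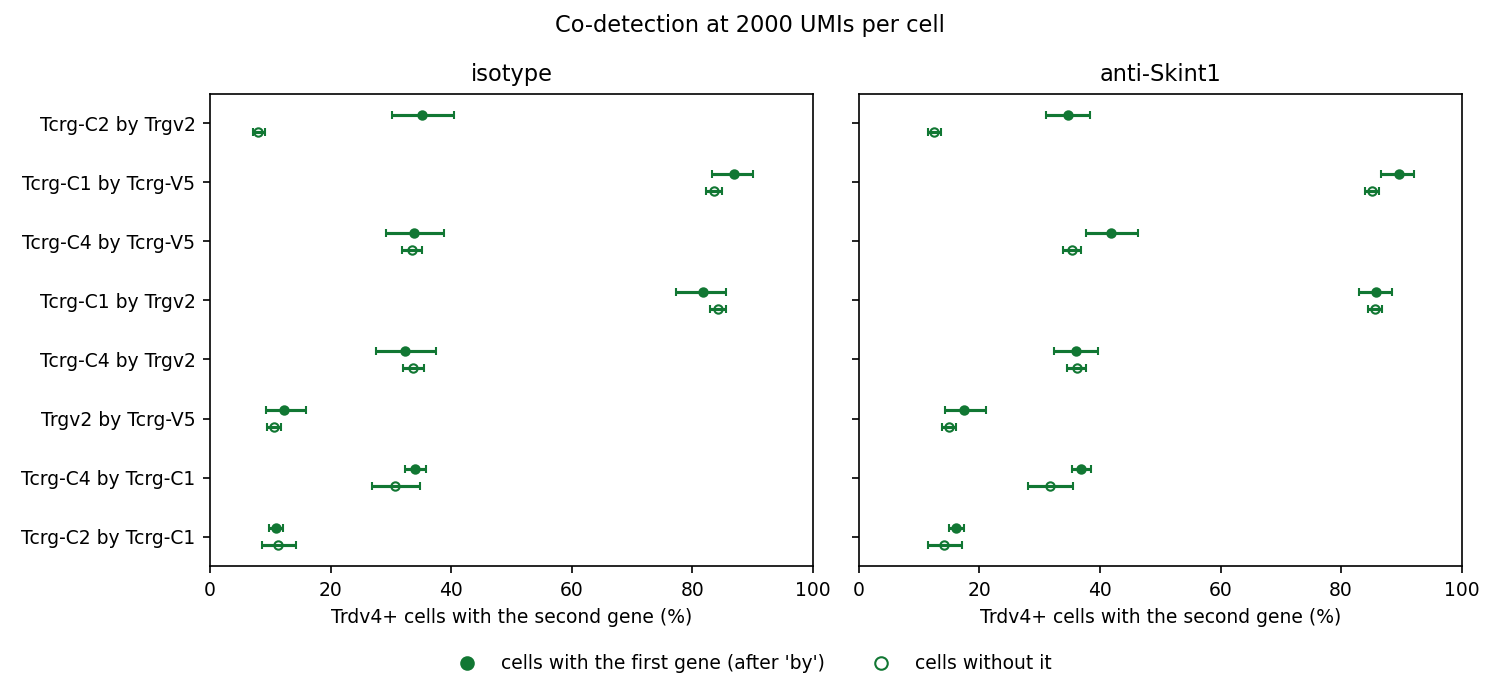
Share of Trdv4+ cells (percent, at 2000 UMIs) with the second gene of each pair, in cells with the first gene (filled) and without it (open), by library, with exact binomial 95% intervals. The widest gap is that of Tcrg-C2 by Trgv2, 35.2% against 8.04% in isotype and 34.7% against 12.6% in anti-Skint1.

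The same cells were sorted by how many γ constant genes they showed. At 2000 UMIs, 54.8% of isotype and 50.1% of anti-Skint1 Trdv4+ cells had exactly 1 of Tcrg-C1, Tcrg-C2 and Tcrg-C4, 32.1% and 36.7% had 2, and 3.17% and 4.74% had all 3. None of them was found in 9.92% and 8.46%. At least 1 of the 3 γ variable members was found in 21.7% and 26.0% of cells and at least 2 in 1.74% and 2.34%. Constant genes of more than 1 cassette were thus common in single cells even at this depth, whereas variable genes were mostly below detection.

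In the αβ class, the γ constant genes followed Trdc. Tcrg-C1 was found in 40.7% of isotype cells with Trdc, 11 of 27, against 2.65% without, and in 51.0% of anti-Skint1 cells with Trdc, 25 of 49, against 5.26% without. Tcrg-C4 was found in 22.2% against 3.31% and in 36.7% against 3.01%. In the IL-17-type class Tcrg-C1 was found in 34.4% of isotype cells with Trdc against 6.45% without, with overlapping intervals, and in 45.8% against 2.50% in anti-Skint1, with intervals apart. Among all CD3+ cells at this depth, 2.59% and 4.39% had both Trdc and Trac, and 4.23% and 3.67% had neither.

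Free RNA was gauged from barcodes with 1 to 100 UMIs. Trdc stood at 2228 CPM there in isotype, so free transcripts of these genes were present. The UMIs of 5 keratinocyte genes were used to bound the free share of each class, taking all of them as free. This gave 1.83% and 2.38% for Trdv4+ cells and 2.42% and 1.77% for αβ cells, and the free Trdc of the αβ class would then be 53.8 and 33.5 CPM of the 318 and 597 measured. The γ constant genes stood somewhat higher against Trdc in free RNA than in Trdv4+ cells, except Tcrg-C1 in anti-Skint1. Tcrg-C1 gave 21.7 and 28.7 UMIs per 100 Trdc UMIs in Trdv4+ cells and 23.6 and 28.7 in free RNA, and Tcrg-C2 gave 1.40 and 2.58 against 1.80 and 3.27. Trdv4 did not keep that ratio, with 21.2 and 20.9 per 100 Trdc UMIs over all CD3+ cells and 8.01 and 9.55 in free RNA.

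The other 18 γ and δ locus genes, mostly variable, diversity or joining segments that a 3′ library reads poorly, had few UMIs. Tcrg-V1 alone reached 20 CPM in Trdv4+ cells, at 21.5 and 22.1, and it was found in 4.15% and 4.22% of them at 2000 UMIs. Of the 18, 9 had no UMI in any CD3+ cell. Tcrg-V4, a variable gene of IL-17-producing cells, had 30 and 87 UMIs in Trdv4+ cells, with an interval of 0.63 to 1.90 for the log2 ratio, and 18 and 29 in Trdv4- Trdc-high cells. Tcrg-V7, the variable gene known from γδ T cells of the gut, had 6 and 9 UMIs in Trdv4+ cells but 23 and 13 in the much smaller Trdv4- Trdc-high class. Tcrg-V1 had 36 and 85 UMIs in that class.

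Across 12 groups, the 4 classes, the unclassed CD3+ cells and the CD3-free cells of both libraries, the genes with the most similar log level were listed among 7636 genes. The nearest to Trdc were Slc38a1 (r = 0.975), Lin54 (0.970) and Emd (0.968), and the nearest to Tcrg-C1 was Col27a1 (0.986). Nearest to Trgv2 was Hs3st3b1 (0.960), to Tcrg-C2 Srrd (0.957), to Tcrg-C4 Gm27194 (0.981), to Tcrg-V5 Tbc1d5 (0.980) and to Trdv4 Pex19 (0.728). These values describe 12 groups that share libraries and, in part, cells, and groups of few cells weigh as much as groups of many.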

How the data were processed

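Ear epidermal T cells were profiled by 10x 3′ libraries, and the authors deposited raw UMI counts per gene and barcode made with Cell Ranger 3.0.2 on mm10 (GRCm38), without normalization or removal of empty barcodes. Cells were filtered and classed as given above. Counts were summed by library and class and scaled to CPM. Intervals were exact Poisson for levels, exact conditional binomial for ratios and Clopper-Pearson for shares, and they cover counting error only. Each cell was thinned once to 2000 UMIs with a fixed seed for detection and co-detection. Genes named beside the members are those past a log2 ratio of 0.32, the receptor complex and marker lists and the genes nearest by Pearson's r of log levels. Scrublet, run through scanpy 1.11.5, marked doublets, which were kept. Sequences came from annotated transcripts of the reference (GENCODE, GRCm38). Python 3.11.15, numpy 2.4.6, scipy 1.17.1 and pandas 2.3.3 were used. On simulated data for the treatment comparison in Trdv4+ cells (2858 genes, 200 changed 1.5-fold), 100% of changed genes were recovered and 95.2% of intervals held the true ratio. The simulated counts were independent Poisson draws, the setting the intervals are built for. They held no spread between cells or animals, so this checks the calculation only. The members and lists were chosen with earlier results of these data known. Alternatives covered the gene, mitochondrial, CD3 and Trdv4 limits, doublets, thinning depth, scaling, free RNA and, added after seeing the data, the Trac limit, the cells with most UMIs and cell depth.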

Additional observations from a re-analysis of the deposited data

Results flagged for a closer look

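Log2 ratios of anti-Skint1 over isotype are given here for genes whose counting intervals lay above 0 in some classes and below 0 in others, and none of the differences between classes was tested. Class membership depends on finding Trdv4, which was lower in anti-Skint1, and the part of a changed class make-up was not tested. Trdc was higher in αβ cells, at 0.91, and lower in Trdv4+ cells at -0.28 and in IL-17-type cells at -0.48, where it was 0.03 with no upper limit on genes. Trgv2 was higher in Trdv4+ cells, at 0.60, and in αβ cells, at 0.85 (0.009 to 1.74) from 19 and 35 UMIs, below 50 CPM. It was lower in Trdv4- Trdc-high cells, at -0.28, where the interval without the 10 cells with most Trgv2 UMIs was -0.46 to 0.09. Trgv2 in IL-17-type cells had an interval that included 0, and Trdc is not given for the class that it set.

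Tcrg-C4 was also found in barcodes without any CD3 UMI, cells that no comparison used. Its level there was 35.8 CPM in isotype and 46.2 in anti-Skint1, from 7 and 20 UMIs in 5 of 47 and 14 of 94 cells. In the same cells Trdc had 20 and 11 UMIs, Tcrg-C1 had 1 and 6 and Trdv4 had 10 and 17. Free RNA, from barcodes with 1 to 100 UMIs, held Tcrg-C4 at 130 and 141 CPM, above the level of these cells, and its part was not tested.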

How the results depend on the processing

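No paired analysis was possible because each treatment is 1 library. The counts of members past a fold limit were recomputed 88 times for 8 results, and all 88 were within 1.5 times the reported count and 81 equal to it. In alternatives added after seeing the data, 1 member (Trdc, log2 -0.39) passed the limit of 0.32 downward in the shallower Trdv4+ cells, where 0 had passed in all of them. The gap in the share of Tcrg-C2 between Trdv4+ cells with and without Trgv2, 27.2 points in isotype and 22.1 in anti-Skint1, was 14.9 and 13.5 after thinning to 1000 UMIs, 34.1 and 29.6 after thinning to 3000, and 15.4 in anti-Skint1 with at most 5% mitochondrial UMIs. The gap in Tcrg-C1 by Tcrg-V5, 3.30 and 4.35 points, lay between 2.38 and 11.8 in isotype and between 2.21 and 9.98 in anti-Skint1. The log2 ratio of Trgv2 in Trdv4+ cells lay between 0.49 and 0.71 over the alternatives run, that of Tcrg-C2 between 0.52 and 0.72 and that of Trdc between -0.39 and -0.23. Without cells in more than 1 class, the log2 ratio of Trdc in IL-17-type over Trdv4+ cells in anti-Skint1 was -5.63 in place of -2.65. That setting takes out Trdc-rich cells by rule. With no upper limit on genes, Trdc in IL-17-type cells had 0.03 in place of -0.48. In αβ cells, without the 10 cells with most UMIs of the gene, Tcrg-C1 was higher by 1.82 and Tcrg-C4 by 1.86. Other single values moved beyond their counting interval in 222 of 1508 planned recomputations, 64 of them at the 5% mitochondrial limit. At this depth Tcrg-V6 could not be compared between IL-17-type and Trdv4+ cells, and 1 library per treatment leaves the spread between animals unknown.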
